A study of Mus musculus with 14 samples.

Results

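The auxiliary subunits of voltage-gated calcium channels were described in mouse cerebellum: the 4 genes of the beta family (Cacnb1, Cacnb2, Cacnb3 and Cacnb4) and the 4 genes of the alpha2delta family (Cacna2d1, Cacna2d2, Cacna2d3 and Cacna2d4). The 8 genes were taken by name and Entrez number, with earlier results of these data known. All 8 were found among the 24100 genes of the count table. RNA had been sequenced from cerebella of littermates wild type (WT) or knockout (KO) for Astn2 at postnatal day 21. Mice of both genotypes carried the bacTRAP transgene Tg(Pcp2-L10a-EGFP), in which Pcp2, a Purkinje cell promoter, drives an EGFP-tagged ribosomal protein L10a. Translating ribosome affinity purification (TRAP) with antibodies to GFP gave RNA bound to tagged ribosomes, and a part of each homogenate set aside beforehand was sequenced as input, which stands for whole cerebellum. There were 4 input WT libraries (1 female, 3 male), 3 input KO (2 female, 1 male), 3 TRAP WT (1 female, 2 male) and 4 TRAP KO (2 female, 2 male).

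A high-voltage-activated calcium channel is built on a pore-forming alpha-1 subunit. The cytoplasmic beta subunit binds the linker between the first pair of repeats of alpha-1, helps bring the channel to the membrane and shifts its gating. The alpha2delta subunit is a largely extracellular protein, cut from 1 precursor and attached to the membrane by a lipid anchor, that raises the number of channels at the surface and is the target of gabapentin in the forms coded by Cacna2d1 and Cacna2d2. Purkinje cells carry mostly P/Q-type current, whose pore is coded by Cacna1a, and mouse mutants of Cacna1a (tottering), Cacnb4 (lethargic) and Cacna2d2 (ducky) are ataxic.

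Library totals ran from 18.8 to 54.2 M counts (M, 1e6 counts), so the 3 counts taken as the smallest level a library can show correspond to 0.0553 to 0.160 counts per 1e6 counts (CPM), which covers counting error only. The targeted gene matched the genotype labels: Astn2 was at 88.7 to 104 CPM in input WT and 0.729 to 0.968 CPM in input KO, and at 117 to 146 CPM in TRAP WT and 1.06 to 2.11 CPM in TRAP KO. The purification matched its label too, since in WT all 12 Purkinje cell markers were called higher in TRAP, while all 10 granule cell, all 8 interneuron and all 10 oligodendrocyte markers were lower. Summed over each list, TRAP WT held 1273% of the input WT level of the Purkinje markers, 23.6% of the granule cell, 24.8% of the interneuron, 24.7% of the oligodendrocyte, 42.7% of the microglial, 36.4% of the endothelial and 86.0% of the astroglial markers. Of the 10 astroglial markers 9 were called lower, and 1, Hopx, was higher at 2.63 on the log2 scale, with a list median of -1.62. No gene of these 7 lists was at 0 in every library of a group. A further list of 6 choroid plexus markers summed to 93.0% of input in WT, with 1 called higher, 1 lower and 4 not called. Its sum ran from 17.1 to 411 CPM among the input WT libraries. Replicate 3 of TRAP WT stood apart for several channel genes, as given beside them.

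The first comparison was between tagged Purkinje ribosomes and whole cerebellum. In WT, Cacnb2 and Cacna2d2 were higher in TRAP, Cacnb1, Cacnb3, Cacna2d1, Cacna2d3 and Cacna2d4 were lower, and Cacnb4, the most abundant of the 8 per length of transcript, did not pass the test. In KO, with other libraries but in the same model and so not a separate test, the same 2 genes were higher and the same 5 lower. Each family thus had 1 member higher in TRAP, so that 2 of 8 members were higher and 5 of 8 lower. A gene was called where edgeR's quasi-likelihood test gave it a Benjamini-Hochberg adjusted p under 0.05. Among all 16042 genes tested, 37.0% were higher and 38.5% lower in WT, and 36.3% and 39.6% in KO, so calls in either direction were common. The log2 fold changes of all genes had a median of -0.088 (WT) and -0.11 (KO), against -0.046 and -0.061 for the 4 beta genes and -1.27 and -1.11 for the 4 alpha2delta genes. In such bulk samples, fewer cells of a type and less RNA per cell cannot be told apart.

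**Figure D1:**
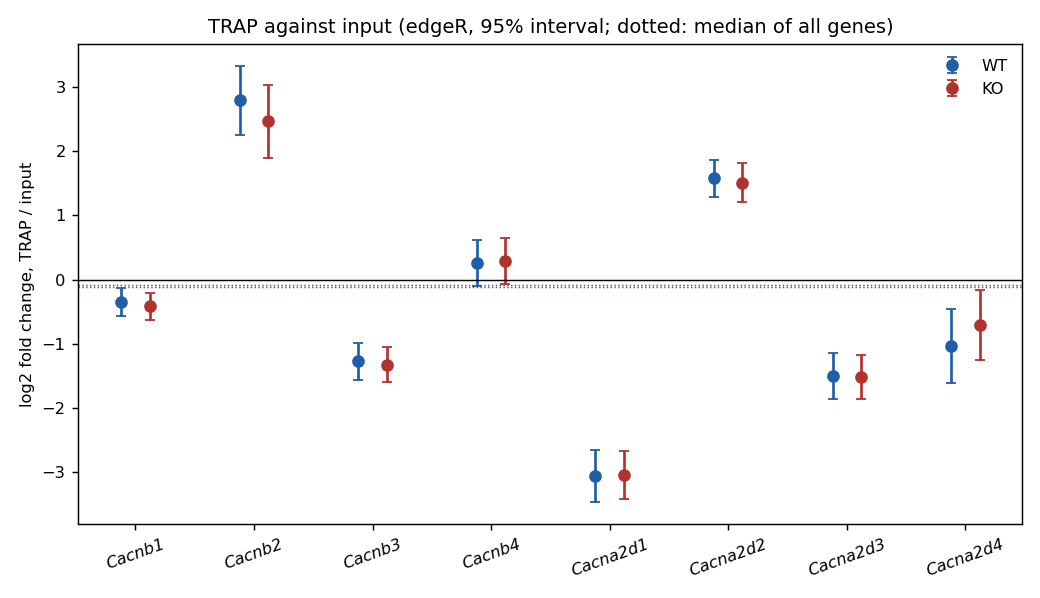
Log2 fold change of TRAP against input (vertical axis) for each of the 8 subunit genes, in WT (blue) and KO (red); points are edgeR estimates, bars are 95% intervals and the dotted lines mark the median of all genes. Cacnb2 (2.80 in WT) and Cacna2d2 (1.58) lie above 0, Cacna2d1 (-3.07) lies lowest, and the interval of Cacnb4 spans 0 in both genotypes.

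Cacnb4 (Entrez 12298; GRCm38 chromosome 2, 52428320 to 52676831, minus strand) codes for the beta subunit that the lethargic mouse lacks. It was counted at 427, 411, 415 and 437 CPM in input WT and at 521, 458 and 529 CPM in TRAP WT. The 3 TRAP WT libraries lay above the 4 input WT libraries, by a small margin. The log2 fold change was 0.26 ± 0.16 (SE; 95% interval -0.10 to 0.61; adjusted p = 0.170, edgeR). In KO the input libraries were at 452, 438 and 497 CPM and the TRAP libraries at 525, 540.5, 422 and 798 CPM, and the groups overlapped. The KO log2 fold change was 0.29 ± 0.17 (SE; adjusted p = 0.124, edgeR), and without TRAP KO replicate 3, the lowest of its group, it was 0.42 (adjusted p = 0.0156, edgeR). Scaled to library totals alone, which moved the median of all genes by -0.82 in WT and -0.73 in KO, Cacnb4 turned to -0.56 (adjusted p = 0.00631, edgeR) in WT and -0.44 (adjusted p = 0.0224, edgeR) in KO, both still above those shifts. Exons of Cacnb4 share 1433 bases, 16.0% of their length, with A430018G15Rik on the opposite strand, and whether counting used strand is not given in the sources used here.

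Cacnb2 (Entrez 12296; chromosome 2, 14603088 to 14987908, plus strand) codes for the beta subunit best known from the L-type channels of the heart. Input WT libraries held 46.2, 41.3, 43.1 and 39.5 CPM, and TRAP WT libraries held 260, 174 and 452 CPM. Every TRAP library was above every input library, but the 3 TRAP WT libraries differed widely among themselves, with replicate 3 the highest. The log2 fold change was 2.80 ± 0.25 (SE), a 6.95-fold difference (95% interval 4.80 to 10.1; adjusted p = 2.16e-07, edgeR). Without TRAP WT replicate 3 it was 2.30 (adjusted p = 2.57e-08, edgeR). Over 22 other settings of scaling, filter, model and libraries, the WT value ran from 1.98 to 3.025 and passed the threshold in all 22. They include library totals, which moved the median of all genes by -0.82. KO gave the same picture, with 43.4, 48.5 and 48.9 CPM in input and 229, 271, 217 and 331 CPM in TRAP, and a log2 fold change of 2.47 ± 0.27 (SE; adjusted p = 1.54e-06, edgeR).

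Cacnb3 (Entrez 12297; chromosome 15, 98630840 to 98644529, plus strand) codes for a beta subunit widely found with N-type channels in brain. It stood at 100.5, 99.6, 83.6 and 78.2 CPM in input WT and at 43.9, 35.4 and 34.0 CPM in TRAP WT, with no overlap. The log2 fold change was -1.27 ± 0.14 (SE), so TRAP held 0.414 times the input level (95% interval 0.338 to 0.507; adjusted p = 1.29e-06, edgeR). In KO, input was at 92.7, 88.3 and 99.3 CPM and TRAP at 35.6, 39.2, 42.2 and 31.0 CPM, and the log2 fold change was -1.32 ± 0.13 (SE; adjusted p = 6.41e-07, edgeR).

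Cacnb1 (Entrez 12295; chromosome 11, 98001508 to 98023034, minus strand) codes for the beta subunit of the skeletal muscle channel, with a further splice form in brain. Its levels were 26.6, 26.6, 24.5 and 26.2 CPM in input WT and 20.0, 19.3 and 21.7 CPM in TRAP WT. This was the smallest called difference of the 8 genes, with a log2 fold change of -0.35 ± 0.10 (SE; adjusted p = 0.00550, edgeR). Over the 22 other settings the WT value ran from -1.17 to -0.32, past the threshold in all 22. They include library totals, which moved the median of all genes by -0.82. With 1 library left out in turn the WT value ran from -0.42 to -0.32. In KO it was -0.41 ± 0.10 (SE; adjusted p = 0.00157, edgeR), from 27.1, 23.9 and 27.7 CPM in input and 18.3, 20.1, 21.6 and 19.3 CPM in TRAP. The summed level of 6 skeletal muscle markers was between 2.21 and 5.03 CPM in most libraries but reached 86.1 CPM in replicate 1 of input KO and 24.8 CPM in replicate 1 of TRAP KO, and its part in the KO values was not tested.

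Cacna2d2 (Entrez 56808; chromosome 9, 107399612 to 107529343, plus strand) is the gene mutated in the ducky mouse, whose Purkinje cells carry less P-type current. Its input WT libraries were at 87.5, 97.5, 105 and 115 CPM and its TRAP WT libraries at 242, 272 and 387 CPM. All TRAP libraries were above all input libraries, and replicate 3 of TRAP WT was again the highest. The log2 fold change was 1.58 ± 0.13 (SE), a 2.99-fold difference (95% interval 2.45 to 3.64; adjusted p = 1.23e-07, edgeR), and without that replicate 1.35 (adjusted p = 5.08e-08, edgeR). Its size depends on the scaling more than that interval shows. Over the 22 other settings the WT log2 fold change ran from 0.76 to 1.68, past the threshold in all 22. They include library totals, which moved the median of all genes by -0.82. With 1 library left out in turn the WT log2 fold change ran from 1.35 to 1.68, inside the interval of 1.29 to 1.87 on that scale. In KO the values were 92.8, 92.6 and 87.9 CPM in input and 265, 242, 285 and 274 CPM in TRAP, a log2 fold change of 1.51 ± 0.14 (SE; adjusted p = 3.61e-07, edgeR).

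Cacna2d1 (Entrez 12293; chromosome 5, 15934691 to 16374511, plus strand) codes for the form first described in skeletal muscle, which is also widespread in brain and binds gabapentin. It fell furthest of the 8. Input WT libraries held 51.3, 51.2, 43.5 and 44.7 CPM, and TRAP WT libraries held 5.67, 5.80 and 5.68 CPM, from 83 to 137 counts each. The TRAP WT libraries were almost level with each other and far below every input library. The log2 fold change was -3.07 ± 0.19 (SE), so TRAP held 0.119 times the input level (95% interval 0.0902 to 0.158; adjusted p = 5.77e-09, edgeR). In KO, 46.9, 51.2 and 48.6 CPM in input stood against 6.01, 7.09, 6.86 and 3.54 CPM in TRAP, a log2 fold change of -3.04 ± 0.17 (SE; adjusted p = 4.01e-09, edgeR). As a ratio of group means, 11.99% of the input level of Cacna2d1 remained in TRAP in WT, compared with 23.6% for the summed granule cell markers. The difference between these percentages was not tested. Log2 fold changes of single markers in WT ran from -3.03 to -1.28 for granule cells and from -3.19 to -0.88 for interneurons.

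Cacna2d3 (Entrez 12294; chromosome 14, 28904943 to 29721864, minus strand) codes for a form that does not bind gabapentin. It was at 63.5, 60.5, 56.2 and 59.9 CPM in input WT and at 25.8, 18.9 and 19.7 CPM in TRAP WT. The ranges were far apart, with a log2 fold change of -1.50 ± 0.17 (SE; adjusted p = 1.77e-06, edgeR). In KO the input libraries held 61.8, 61.6 and 58.9 CPM and the TRAP libraries 17.6, 23.7, 26.4 and 15.8 CPM, a log2 fold change of -1.52 ± 0.16 (SE; adjusted p = 1.07e-06, edgeR). TRAP WT held 35.8% of the input WT level, inside the 23.6% to 42.7% that the granule cell, interneuron, oligodendrocyte, microglial and endothelial marker sums held, as did Cacnb3 at 41.8%. The part of RNA from these other cells in the TRAP levels of Cacnb3 and Cacna2d3 was not tested.

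Cacna2d4 (Entrez 319734; chromosome 6, 119236526 to 119352407, plus strand), known for its role in photoreceptor synapses, was the lowest of the 8. It was at 2.46, 3.25, 3.33 and 3.28 CPM in input WT and at 1.78, 1.52 and 1.24 CPM in TRAP WT, with 26 to 30 counts in each of the latter. TRAP WT libraries lay below input WT, and the log2 fold change was -1.03 ± 0.27 (SE; adjusted p = 0.00318, edgeR). In KO the input libraries were at 3.46, 3.22 and 2.10 CPM and the TRAP libraries at 1.56, 1.40, 2.58 and 1.81 CPM, which overlapped. That difference passed the test at -0.70 ± 0.25 (SE; adjusted p = 0.0222, edgeR), but not without replicate 1 or 2 of input KO or replicate 1 or 2 of TRAP KO, where the adjusted p ran from 0.0653 to 0.0864, nor with genotype and replicate number as a block (-0.69, adjusted p = 0.0886, edgeR). The gene's span also holds Lrtm2, on the opposite strand and with no shared exon.

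**Figure D2:**
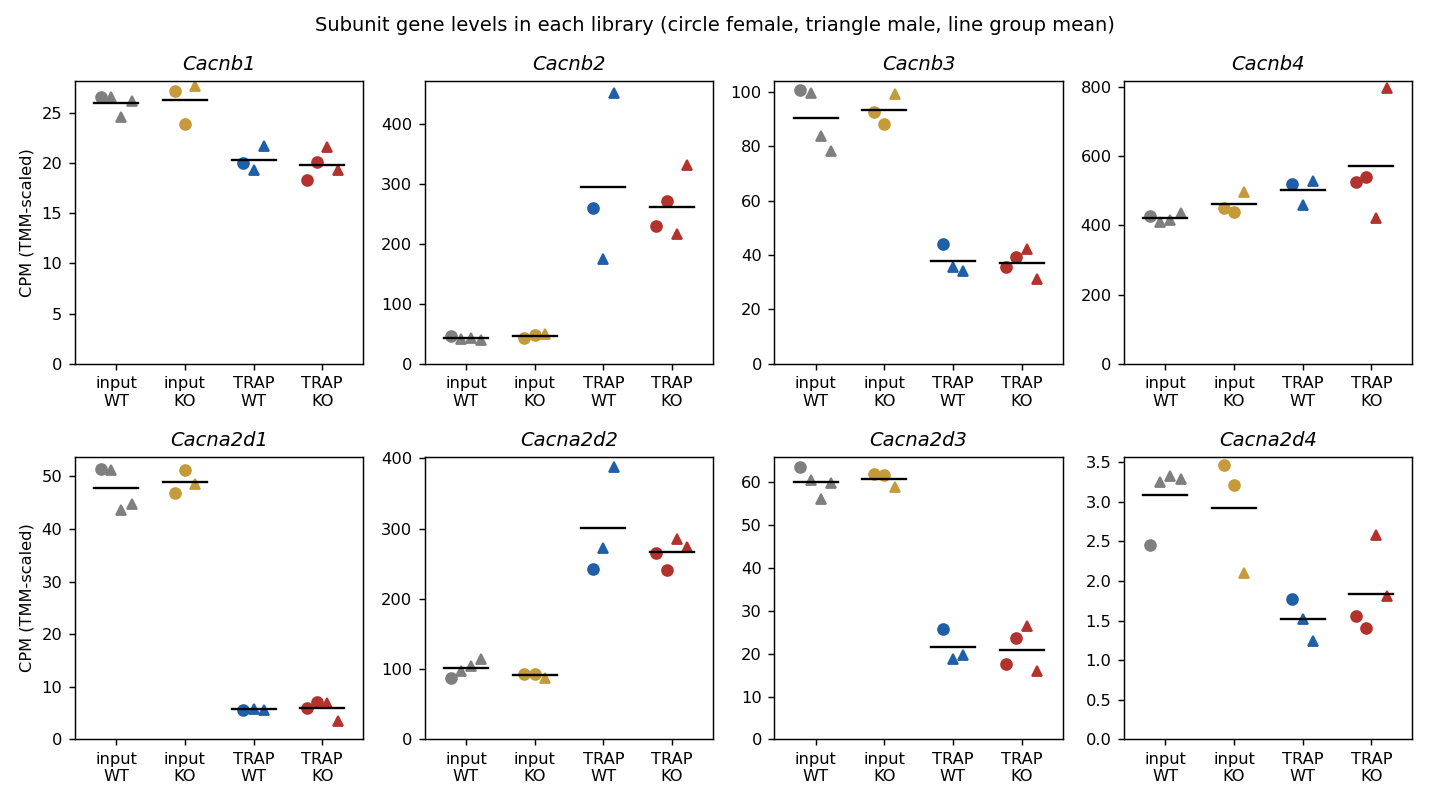
CPM of each of the 8 subunit genes (vertical axes, from 0) in every library, grouped as input WT, input KO, TRAP WT and TRAP KO; each point is 1 library (circle, female; triangle, male) and lines mark group means. Cacnb2 and Cacna2d2 step up from input to TRAP (Cacnb2 from 39.5 to 48.9 CPM in input to 174 to 452 CPM in TRAP), Cacna2d1 steps down to 3.54 to 7.09 CPM, and WT and KO points overlap within each fraction except for Cacnb4 in input.

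Levels of different genes were set side by side only as CPM per kb, that is, CPM divided by the length of the longest transcript of the gene in GENCODE M21. In input WT the order was Cacnb4 at 51.4 ± 1.41 CPM per kb (SD, n = 4), Cacnb3 at 33.1 ± 4.12, Cacna2d2 at 17.4 ± 1.99, Cacna2d3 at 16.2 ± 0.819, Cacnb2 at 8.45 ± 0.568, Cacnb1 at 7.65 ± 0.288, Cacna2d1 at 6.41 ± 0.557 and Cacna2d4 at 0.530 ± 0.0718. Of neighbours in this order, Cacna2d2 and Cacna2d3 overlapped. Input KO had the same order except that Cacna2d3 and Cacna2d2, which overlapped there too, changed places.

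In TRAP WT the order was Cacnb4 at 61.1 ± 4.72 CPM per kb (SD, n = 3), Cacnb2 at 58.7 ± 28.2, Cacna2d2 at 51.7 ± 13.2, Cacnb3 at 13.8 ± 1.95, Cacnb1 at 5.99 ± 0.370, Cacna2d3 at 5.81 ± 1.03, Cacna2d1 at 0.769 ± 0.00919 and Cacna2d4 at 0.261 ± 0.0460. Cacnb4 and Cacnb2 overlapped, as did Cacnb2 and Cacna2d2, and Cacnb1 and Cacna2d3. TRAP KO had the same order and the same overlaps. Without replicate 3, the other TRAP WT libraries held 34.6 and 51.6 CPM per kb of Cacnb2. A group of 3 transcripts, Cacnb4, Cacnb2 and Cacna2d2, thus stood above the other 5 on Purkinje ribosomes, where in input Cacnb4 and Cacnb3 led.

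The share of each subunit in the summed CPM per kb of its family, which no scaling between libraries can change, showed the same exchange. Among beta subunits, Cacnb2 took 8.01% to 9.43% in the 7 input libraries and 31.8% to 51.9% in the 7 TRAP libraries. Cacnb3 took 29.4% to 35.6% in input and 6.30% to 13.3% in TRAP. Cacnb1 took 6.89% to 7.93% in input and 3.16% to 5.47% in TRAP. Cacnb4 stayed the leading or second subunit, at 48.8% to 54.6% in input and 37.2% to 53.9% in TRAP. On the length of the longest transcript, only in TRAP WT replicate 3 did Cacnb2 (51.9%) exceed Cacnb4 (37.2%). In the other 6 TRAP libraries the highest share of Cacnb2 was 38.6%.

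Among alpha2delta subunits, the input mix of Cacna2d2 (38.1% to 46.4%), Cacna2d3 (38.1% to 43.4%) and Cacna2d1 (14.1% to 17.4%) gave way in TRAP to Cacna2d2 at 83.8% to 91.4%. Cacna2d3 took 7.30% to 14.1% there, Cacna2d1 0.912% to 1.94% and Cacna2d4 0.294% to 0.772%. Shares depend on the transcript length used: with the union of all annotated exons as length, the mean share of Cacnb2 in TRAP WT was 23.4% instead of 40.5%, and in input WT 4.09% instead of 8.40%. On that length Cacna2d2 took 92.1% in TRAP WT and 53.4% in input WT. The rise of Cacnb2 and Cacna2d2 from input to TRAP was thus present on both lengths. Per union length Cacna2d2 stood above Cacnb2 in TRAP, at 37.8 ± 9.66 against 22.3 ± 10.7 CPM per kb in TRAP WT (SD, n = 3), with ranges that overlapped there. In TRAP WT replicate 3, Cacnb2 took 32.1% and Cacnb4 55.4% on that length. Per union length Cacnb4 lay above Cacna2d2 with no overlap in TRAP WT and TRAP KO, and Cacnb2 had rank 7 in input WT.

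**Figure D3:**
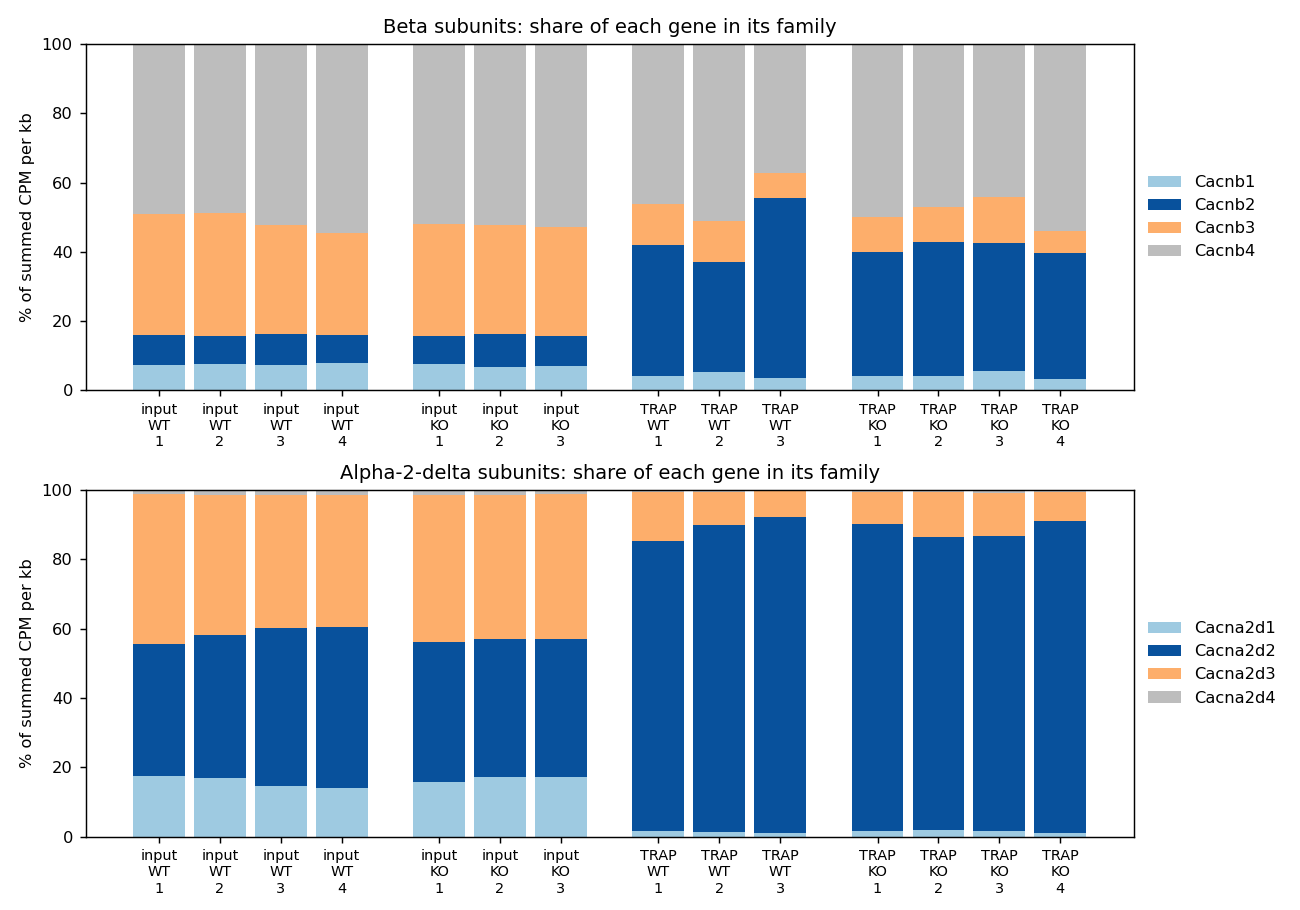
Share of each subunit in its family's summed CPM per kb (vertical axis, percent), stacked for each of the 14 libraries, with the beta family and the alpha2delta family in separate panels. Cacnb2 takes 31.8% to 51.9% of the beta family in TRAP libraries against 8.01% to 9.43% in input, and Cacna2d2 takes 83.8% to 91.4% of the alpha2delta family against 38.1% to 46.4%.

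As totals, the beta family summed to 101 ± 4.27 CPM per kb in input WT (SD, n = 4), 107 ± 6.41 in input KO (SD, n = 3), to 140 ± 32.1 in TRAP WT (SD, n = 3) and to 141 ± 27.7 among the TRAP KO libraries (SD, n = 4). The alpha2delta family summed to 40.6 ± 1.37 CPM per kb in input WT, 39.2 ± 1.10 in input KO, 58.6 ± 12.6 in TRAP WT and 52.6 ± 3.56 in TRAP KO. These sums moved less between fractions than Cacnb2, Cacna2d2 and Cacna2d1 did. Their direction depends on the scaling. The TMM factors ran from 1.26 to 1.32 in input libraries and from 0.724 to 0.798 in TRAP libraries. Without these factors the group means of both sums would be lower in TRAP than in input.

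The start regions of the 2 genes that were higher in TRAP and of the 1 that fell furthest are shown, so that the letters of genes moving in opposite directions can be compared. They are RefSeq windows of assembly GRCm38.p6, from 250 bases before to 50 after an annotated start, on the gene's strand, and capitals mark each GC box (GGGCGG on either strand, the core of Sp1 motifs). The Cacnb2 window is chr2:14604056-14604355 (plus strand), the Cacna2d2 window chr9:107399630-107399929 (plus strand) and the Cacna2d1 window chr5:15934441-15934740 (plus strand).
Cacnb2: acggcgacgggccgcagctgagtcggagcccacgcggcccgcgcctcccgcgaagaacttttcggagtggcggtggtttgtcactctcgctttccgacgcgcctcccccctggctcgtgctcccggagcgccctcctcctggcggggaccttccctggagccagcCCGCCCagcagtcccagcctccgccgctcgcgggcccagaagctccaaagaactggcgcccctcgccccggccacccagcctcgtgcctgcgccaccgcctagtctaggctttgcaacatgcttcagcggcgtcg
Cacna2d2: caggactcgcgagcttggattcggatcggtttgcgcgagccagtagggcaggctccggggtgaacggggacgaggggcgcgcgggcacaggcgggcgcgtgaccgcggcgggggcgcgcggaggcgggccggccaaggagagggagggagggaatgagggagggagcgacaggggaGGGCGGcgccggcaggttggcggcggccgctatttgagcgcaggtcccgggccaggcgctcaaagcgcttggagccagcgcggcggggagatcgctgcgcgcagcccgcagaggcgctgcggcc
Cacna2d1: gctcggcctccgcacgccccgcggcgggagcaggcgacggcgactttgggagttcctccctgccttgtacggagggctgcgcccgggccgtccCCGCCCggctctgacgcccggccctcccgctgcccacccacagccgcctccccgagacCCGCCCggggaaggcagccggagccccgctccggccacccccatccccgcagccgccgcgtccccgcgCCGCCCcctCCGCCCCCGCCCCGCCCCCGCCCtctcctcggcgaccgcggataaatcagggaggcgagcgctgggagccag
The Cacnb2 and Cacna2d2 windows held 1 GC box each and the Cacna2d1 window 7, some of them side by side. They held 35, 43 and 42 CpG dinucleotides, against a median of 7 over all 32851 windows in the table. Of the other genes lower in TRAP, the windows of Cacnb1 held 5 and 0 GC boxes, those of Cacnb3 1 and 4, and that of Cacna2d3 6. Those of Cacnb4, not called, held 6, 0 and 0. Whether GC box counts go with direction was not tested. A GC box was present in 35.7% of all windows. None of the 3 held TATAAA (13.6% of all windows) or AGGTCA (16.3%) on either strand, and the E box CANNTG (72.3%) was found only in that of Cacnb2, 1 time. Cacnb2 has a further annotated start at chr2:14823842-14824141 (plus strand), a window with 0 GC boxes, 4 E boxes and 4 CpG dinucleotides, and gene counts do not tell which start was used. In all, 7 of the 8 genes matched, with 12 windows. These matches describe the letters of the windows and were not set against binding data.

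The rest of the channel was described from lists of 10 alpha-1, 8 gamma and 22 regulator or partner genes. The calls in each list stand beside those of all genes tested. Of these, 37.0% were higher and 38.5% lower in WT, and 36.3% and 39.6% in KO. Of the 10 alpha-1 genes, 1 was higher and 7 lower in TRAP WT than in input WT. Cacna1g, the T-type pore, was higher, with a log2 fold change of 2.71 ± 0.26 (SE; adjusted p = 4.65e-07, edgeR), and 2.10 without TRAP WT replicate 3 (adjusted p = 7.53e-09, edgeR). Cacna1e, the R-type pore, was the lowest at -3.64, followed by the L-type pore Cacna1c at -2.62 and the N-type pore Cacna1b at -2.23, all 3 called lower. Cacna1a, the P/Q-type pore, named outside the rule for list genes because of its place in Purkinje cells, had a log2 fold change of 0.30 ± 0.21 (SE; adjusted p = 0.210, edgeR) and did not pass the test. Its TRAP WT libraries were widely spread, from 328 to 766 CPM, against 388 to 410 CPM in input WT. In KO, 1 alpha-1 gene was higher and 8 were lower, as in WT without TRAP WT replicate 3.

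The gamma genes code for proteins of which several are better known as AMPA receptor partners. Of the 6 tested, 2 were higher and 4 lower in WT, and 1 was higher and 4 lower in KO. Cacng2 (stargazin, the gene of the ataxic stargazer mouse) was higher, by 1.64 ± 0.28 (SE) on the log2 scale and by 1.01 without TRAP WT replicate 2. Lower were Cacng4 at -2.83, Cacng8 at -2.27 and Cacng3 at -2.21. Cacng7 had a log2 fold change of 0.68 ± 0.22 (SE; adjusted p = 0.0115, edgeR), but 0.15 without TRAP WT replicate 3 (adjusted p = 0.169, edgeR) and -0.14 when scaled to library totals.

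Of 20 regulator and partner genes tested, 6 were higher and 11 lower, in WT as in KO. Among all genes tested in WT, 37.0% were higher and 38.5% lower. Stac, an adaptor protein that slows inactivation of L-type channels, was the highest at 3.91 ± 0.15 (SE), a 15.0-fold difference. Calm2, 1 of 3 genes for calmodulin, was higher at 2.63, and Cbarp, which codes for a protein that binds beta subunits and lowers calcium current, at 1.51. The active-zone scaffolds Rims1 (-2.77) and Rims2 (-1.70), of which Rims1 binds beta subunits, and the calcium-binding protein Cabp1 (-1.60) were lower. With library totals, 1 alpha-1 gene was higher and 9 lower, 1 gamma gene higher and 4 lower, and 5 regulators higher and 13 lower in WT. On that scaling 3135 of all 16042 genes tested were higher and 9801 lower, so most genes were called lower.

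**Figure D4:**
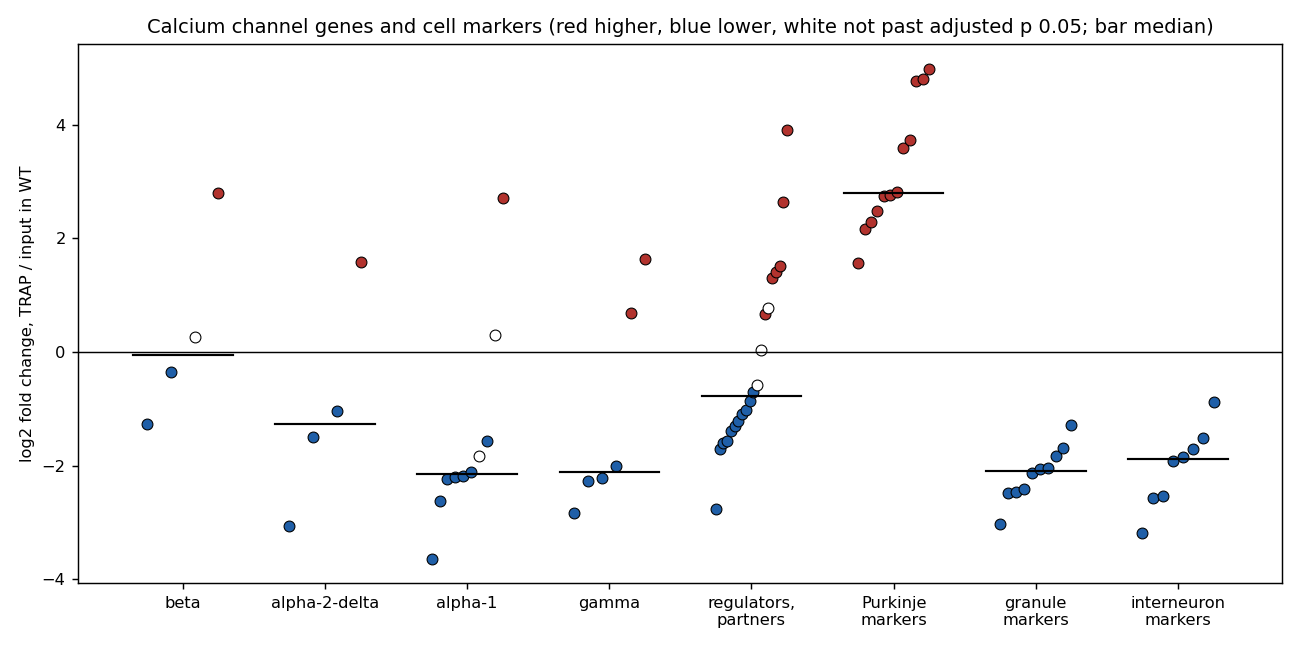
Log2 fold change of TRAP against input in WT (vertical axis) for the genes of each calcium channel list and of 3 marker lists, 1 column of points per list, red or blue where called higher or lower, white where not, with a bar at the list's median. Most alpha-1 genes lie below 0 while Cacna1g is at 2.71, and among regulators Stac is at 3.91.

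Over the 14 libraries, the genes whose log2(CPM + 1) ran most like that of Cacnb2 were Ttll5, Cep126 and Cdc42se2, with Pearson r of 0.998, 0.998 and 0.997. Among those most like Cacna2d2 were Atp2a3 and Clstn3, each with r of 0.998. For Cacna2d1 they were Ntrk2, Negr1 and Anks1 (r of 0.998, 0.998 and 0.997), and for Cacnb3 Hpcal4, Actl6b and Jph3 (r of 0.995, 0.995 and 0.994). The points share their fraction, and 1800 to 2214 of the 16041 other genes had r over 0.95 with the gene in question, so these names are a description of a broad pattern.

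The comparison the study was set up for is that of genotypes, first on Purkinje ribosomes. None of the 8 subunit genes passed in TRAP, where 0.00707% of the 14145 genes tested did (1 gene). At an unadjusted p of 0.05 there were 0 of 8, against 1.50% of all genes tested, and the DESeq2 Wald test called 0 of 8, against 0.0212% of all genes. The log2 fold changes of KO against WT were -0.018 for Cacnb1, -0.13 for Cacnb2, -0.041 for Cacnb3 and 0.20 for Cacnb4. They were -0.0014 for Cacna2d1, -0.11 for Cacna2d2, -0.048 for Cacna2d3 and 0.30 for Cacna2d4, and each gave an adjusted p of 1.00 (edgeR). KO and WT libraries overlapped for each of the 8 genes, where 4.49% of the genes tested had groups that did not.

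Intervals say how large a difference these libraries could have missed. For Cacnb1 the 95% interval of the log2 fold change in TRAP was -0.36 to 0.33, the narrowest of the 8, and for Cacna2d4 it was -0.44 to 1.05, the widest. Cacnb2, spread widely in TRAP WT, had an interval of -0.85 to 0.59. For Cacnb4 it was -0.32 to 0.73, with TRAP KO replicate 4 at 798 CPM above the 422 to 540.5 CPM of the other 6 TRAP libraries. For Cacna2d2 the interval was -0.52 to 0.30 and for Cacna2d1 it was -0.61 to 0.61. Differences of the size of those between TRAP and input for Cacnb2, Cacna2d2 and Cacna2d1 lay outside these intervals.

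In whole cerebellum none of the 8 genes passed, where 0.0188% of the 15997 genes tested did (3 genes). At an unadjusted p of 0.05 there were 0 of 8, against 13.7% of all genes tested, and with the DESeq2 Wald test 0 of 8, against 1.84%. Intervals were narrower than in TRAP: for Cacna2d3 the log2 fold change was -0.035 (95% interval -0.16 to 0.095) and for Cacna2d1 -0.011 (95% interval -0.18 to 0.16). Cacnb4 came nearest to the threshold. Its 3 input KO libraries, at 438 to 497 CPM, lay just above the 4 input WT libraries, at 411 to 437 CPM, with a log2 fold change of 0.14 ± 0.064 (SE; 95% interval -0.0067 to 0.29; adjusted p = 0.384, edgeR). It was 1 of 8 members with groups that did not overlap, where 10.3% of the genes tested had such groups. Cacnb2 had 0.11 ± 0.070 (SE; adjusted p = 0.509, edgeR) and Cacna2d2 -0.12 ± 0.10 (SE; adjusted p = 0.645, edgeR).

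**Figure D5:**
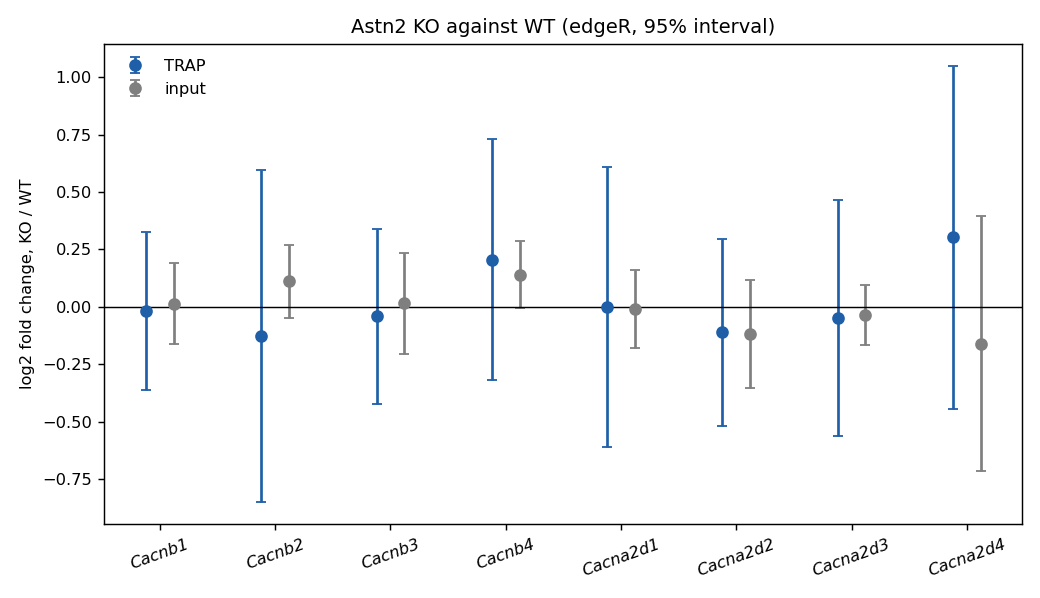
Log2 fold change of Astn2 KO against WT (vertical axis) for each of the 8 subunit genes, in TRAP (blue) and input (grey); points are edgeR estimates and bars 95% intervals. All 16 intervals span 0, and those in TRAP are wider, from -0.85 to 0.59 for Cacnb2.

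Whether the step from input to TRAP differed between genotypes was tested by the genotype by fraction interaction, which shares its libraries with the comparisons above. No gene of the 16042 tested passed (0%), and so 0 of 8 subunit genes did, each with an adjusted p of 0.999 (edgeR). The extremes were Cacnb2, with a log2 interaction of -0.33 ± 0.34 (SE; 95% interval -1.07 to 0.41), and Cacna2d4, with 0.33 ± 0.37 (SE; 95% interval -0.47 to 1.14). Unadjusted, 0 of 8 had p under 0.05, against 2.68% of all genes tested, and the DESeq2 Wald test called 0 of 8, against 0.00623%.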

How the data were processed

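Raw read counts per gene were deposited by the authors, 1 column for each of the 14 libraries and 1 row for each Entrez gene number; per the submitters' processing notes, Salmon 0.8.2 and mm10 were used, and the step from Salmon to whole numbers and the strand setting are not given in the sources used here. Every column matched the labels of 1 sample. Symbols came from the RefSeq table of GRCm38.p6, which matched 24045 genes, and positions and lengths from GENCODE M21 on GRCm38. Libraries of a group differed by more than sampling noise (chi-square per degree of freedom 8.63 to 267). Each group held libraries of both sexes, and so of more than 1 mouse. The labels do not say whether libraries of the same group and sex came from separate mice. The p-values thus measure only the spread between these samples, which may in part be technical.

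CPM used TMM factors over 14 libraries. Differences were tested with edgeR 4.0.16 (quasi-likelihood, two-sided; R 4.3.3) after filterByExpr, with sex as covariate and Benjamini-Hochberg adjustment over all genes tested at 0.05: TRAP against input and the interaction in all 14 libraries, genotype in the 7 of each fraction. The standard error is the absolute log2 fold change over the square root of F. The code was tested on simulated counts. Alternatives were other scalings, filters, DESeq2 1.42.0, no sex covariate, a replicate block, other library sets, each library left out and union exon length.

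Named genes are the 8 members, Astn2 and, of each other channel list, the called genes with the 3 highest and 3 lowest log2 fold changes in TRAP against input in WT; genes outside this rule are identified as such. For likeness, the 3 nearest genes to the highest and lowest member of each family were taken; 1 of them is not reported here. Members and lists were chosen with earlier results of these data known.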

Additional observations from a re-analysis of the deposited data

Results flagged for a closer look

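Of 16 values examined for a far sample (8 genes in each of the 2 groups of 4 libraries, as log2(CPM + 1)), 1 stood apart. Cacna2d4 in input WT replicate 1 was at 2.46 CPM, from 84 counts, below the 3.25 to 3.33 CPM of the other 3 libraries. Its gap to the nearest of them was 0.921 of the range of the group, above Dixon's 95% critical value for 4 samples, which chance exceeds in about 1 of 20 groups. That library is the only female one of its group. In input KO the order of the sexes was the opposite, with 3.46 and 3.22 CPM in the females and 2.10 CPM in the male. Without this library, the input WT group is all male. With sex as covariate, the comparison of genotypes then rests on the 1 male input KO library. The log2 fold change of Cacna2d4 for KO against WT in input was then -0.67, compared with -0.16 with all libraries, which did not pass the threshold.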

How the results depend on the processing

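All 95 recomputed counts of members called were within 1.5 times the reported count. With 8 members this bound could fail only downwards for TRAP against input. Between genotypes and for the interaction every count was 0, as reported, where few genes of the whole table passed. The counts for TRAP against input were 6 to 8. Library totals gave 8 in both genotypes through Cacnb4 (-0.56 in WT, -0.44 in KO) and also turned Cacng7 (-0.14) in WT. On that scaling 9801 of 16042 genes were lower in WT and 9670 in KO, and 3135 and 3132 were higher. In KO, Cacna2d4 passed in 17 of 22 alternatives and failed with the replicate block (-0.69, adjusted p = 0.0886, edgeR). The replicate block ended no other call of a member and called none between genotypes. Deviations of same-numbered input and TRAP libraries correlated at 0.292, 0.243 and 0.0981 in WT and 0.225, 0.225 and -0.125 in KO, so not every pair passed 0.1. The protocol takes input from the homogenate used for TRAP, and the sexes match at every shared number, but the labels do not say that a number marks 1 homogenate. In this check 3 of 3 WT and 2 of 3 KO TRAP libraries correlated best with their own.

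Genotype differences, none called, changed sign as follows. In TRAP, library totals gave 0.036 for Cacnb1, 0.014 for Cacnb3, 0.058 for Cacna2d1 and 0.0095 for Cacna2d3. The replicate block gave 0.057 for Cacnb3, -0.019 for Cacnb4, 0.22 for Cacna2d1 and 0.074 for Cacna2d3. For Cacna2d1, no filter gave 0.00031, a mean count of at least 50 gave 0.0034, no sex covariate 0.045 and 14 libraries in 1 fit 0.0026. In input, library totals gave -0.00012 for Cacnb1. Without the sex covariate, input gave -0.00036 for Cacnb1, 0.021 for Cacna2d1 and 0.0022 for Cacna2d3, and with the replicate block -0.022 for Cacnb3, 0.0025 for Cacna2d1 and 0.0093 for Cacna2d3.

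With 1 library left out in turn, TRAP ranges were -0.066 to 0.020 for Cacnb1, -0.39 to 0.29 for Cacnb2, -0.19 to 0.098 for Cacnb3, -0.090 to 0.37 for Cacnb4, -0.23 to 0.24 for Cacna2d1, -0.21 to 0.061 for Cacna2d2, -0.30 to 0.15 for Cacna2d3 and 0.082 to 0.69 for Cacna2d4. Input ranges were -0.040 to 0.076 for Cacnb1, 0.012 to 0.21 for Cacnb2, -0.13 to 0.16 for Cacnb3, 0.080 to 0.21 for Cacnb4, -0.045 to 0.035 for Cacna2d1, -0.30 to 0.10 for Cacna2d2, -0.052 to -0.014 for Cacna2d3 and -0.67 to 0.46 for Cacna2d4. Interaction ranges were -0.59 to 0.17 for Cacnb2 and -0.029 to 0.50 for Cacna2d4. Cacna2d4 could not be tested between genotypes in TRAP at a mean count of at least 50. In input, leaving out WT replicate 1 or KO replicate 3 leaves that group with a single sex. With sex as covariate, genotype then rests on 1 library of the other group, as at both ends of the input range of Cacna2d4. What caused these shifts was not tested. Depth limits Cacna2d4 most, at 26 to 44 counts in each TRAP library.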

Other observations

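RNA levels are given here for 6 genes whose proteins bind or resemble alpha2delta subunits, picked out of the list of regulators and partners after their values were seen. Over all genes tested, 37.0% were called higher and 38.5% lower in TRAP in WT. Thrombospondins are ligands of the protein coded by Cacna2d1, and 3 of their genes were called lower in TRAP in WT: Thbs1, at 0.908 ± 0.158 CPM in TRAP WT (SD, n = 3) and 2.29 ± 0.614 CPM in input WT (SD, n = 4), had a log2 fold change of -1.31, Thbs2 of -1.09 and Thbs3 of -0.87 (adjusted p = 0.00586, 0.0123 and 0.00144, edgeR). Thbs4 was too low to be tested. Lrp1, a receptor that takes part in alpha2delta trafficking, fell from 331 ± 6.77 to 128 ± 26.7 CPM, with a log2 fold change of -1.40 ± 0.26 (SE; adjusted p = 0.000211, edgeR). Cachd1, whose product resembles alpha2delta, was lower by -1.21 on the log2 scale. Prnp, the prion protein gene, whose product also binds alpha2delta, was higher, at 446 ± 49.7 CPM in TRAP WT against 282 ± 15.5 CPM in input WT, and its log2 fold change was 0.66 ± 0.12 (SE; adjusted p = 0.000265, edgeR). In KO all 6 genes were called in the same direction.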
